A study of Mus musculus with 6 samples.

Results

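The genes described here are 9 markers of the primed epiblast: Fgf5, Otx2, Pou3f1, Zic2, Sox3, Cldn6, Fgf15, Foxd3 and Sfrp2. They were taken by gene name from the array annotation, and all 9 of them, out of 27961 gene names, were measured, each by 1 probe, among 41174 probes on the array that are no controls. Every member passed the filter on dim probes, as did 30214 probes in all. The arrays measured total RNA from male mouse cells of mixed C57BL/6 and 129SV background that had been differentiated in culture from embryonic stem cells with an Oct4-GFP transgene, a reporter of Pou5f1 activity. Cultures held either a control vector or an shRNA vector with 1 of 2 hairpins that target Dazl, a gene for a germ cell protein that binds RNA, and every vector, control included, also carried a tdTomato marker. Feeder cells were depleted, and after 9 or 12 days on gelatin the cells with both GFP and tdTomato were sorted; the labels call them primordial germ cells. At each day the control, hairpin 1 and hairpin 2 were measured on 1 array apiece, so the design held 2 control and 4 knockdown arrays. The labels do not say that samples came from separate cultures or clones, so each p-value covers the spread among these arrays and no more, which may be technical.

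The epiblast is the tissue of the early embryo that gives rise to all body lineages and, under BMP signals, to primordial germ cells. As it leaves the naive state of the blastocyst it switches off naive factors and switches on a primed programme, in which the transcription factor OTX2 directs POU5F1 to new enhancers and FGF signalling through ERK drives the transition. Several of its genes are used again in other tissues, Otx2, Zic2, Sox3, Pou3f1 and Fgf15 in the neural plate and brain, Otx2 and Cldn6 in early endoderm, Foxd3 in neural crest and Sfrp2 in mesenchyme. Pou5f1 itself is expressed in naive cells, epiblast and germ cells alike, so the reporter used for the sort does not separate these states.

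Levels are given as log2 of the processed signal with each array's 75th percentile set to 0, a percentile that lay between a signal of 629 and 745.4. On the 6 arrays 70.3% to 73.3% of probes were well above background, and Pearson's r between arrays, across probes, was 0.980 to 0.995. The target of the hairpins was lower on every knockdown array: on the brighter Dazl probe the differences from the control of the same day were -4.82 to -3.59. Of 10 primordial germ cell markers 9 were matched, and all 9 were well above background on all 6 arrays, among them Ddx4, Nanos3, Dnd1 and Tfap2c. Nanos3 was dim, with log2 levels of -4.90 to -3.86. The 12 naive pluripotency genes that were matched were also well above background on all 6 arrays. Detection therefore does not tell germ cells from naive cells. Arrays of day 9 and of day 12 lay on separate slides with separate scans, and the effect of the day cannot be told apart from that of the slide. The control, hairpin 1 and hairpin 2 took the same positions on both. In bulk RNA of this kind, fewer cells of a type and less RNA per cell cannot be told apart.

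Sequence upstream of the transcription start was matched by symbol for 5 of the 9 members (RefSeq, GRCm38.p6). It is shown for the 3 of these whose knockdown arrays lay wholly on 1 side of the controls, Sfrp2 below and Fgf5 and Foxd3 above. Each line gives the 250 bases before the start, 5′ to 3′, all from the plus strand. Capitals mark matches, on either strand, to letters bound by families that have members in this group: the octamer ATGCAAAT of POU factors, TAATCC of OTX factors and ACAAAG of SOX factors.
Sfrp2: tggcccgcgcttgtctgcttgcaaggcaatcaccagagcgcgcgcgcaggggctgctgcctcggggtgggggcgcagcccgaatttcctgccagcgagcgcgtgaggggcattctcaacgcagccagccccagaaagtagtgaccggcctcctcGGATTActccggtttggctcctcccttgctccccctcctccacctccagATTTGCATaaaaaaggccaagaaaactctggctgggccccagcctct
Fgf5: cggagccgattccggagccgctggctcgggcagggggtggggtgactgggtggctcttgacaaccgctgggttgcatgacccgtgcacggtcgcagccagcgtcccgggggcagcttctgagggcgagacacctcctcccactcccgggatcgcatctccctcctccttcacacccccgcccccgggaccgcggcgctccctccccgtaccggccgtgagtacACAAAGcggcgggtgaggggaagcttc
Foxd3: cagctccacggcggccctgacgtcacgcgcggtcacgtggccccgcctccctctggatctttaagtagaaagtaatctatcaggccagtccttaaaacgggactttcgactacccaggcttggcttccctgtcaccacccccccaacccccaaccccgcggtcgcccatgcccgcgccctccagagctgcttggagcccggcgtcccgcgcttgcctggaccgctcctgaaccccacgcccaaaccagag

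The Sfrp2 window (chr3:83766071-83766320) held an octamer 47 to 40 bases before the start, read on the other strand as ATTTGCAT, and an OTX match 96 to 91 bases before it. The octamer stood in 1.6% of all 32851 windows of this length and the OTX letters in 6.25%. The Fgf5 window (chr5:98253934-98254183) held a SOX match 27 to 22 bases before the start, letters found in 16.5% of windows. The Foxd3 window (chr4:99656049-99656298) held none of the motifs. All 3 windows were rich in CpG dinucleotides, with 16 in Sfrp2, 24 in Fgf5 and 21 in Foxd3 against a median of 6 over all windows. The windows of Cldn6 and Otx2, not shown, held 9 CpG and 6 to 14 CpG, respectively. Of the 4 Otx2 windows 1 also held the OTX letters, 211 to 206 bases before the start, so that match was not confined to Sfrp2, and the Cldn6 window held none of the motifs. These matches are letters in a window and were not set against any binding data.

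Knockdown against control asks what differs in cells with little Dazl. The 9 members did not go 1 way. Fgf15, Fgf5 and Foxd3 were higher than both controls on all 4 knockdown arrays, Sfrp2 and Pou3f1 were lower than both controls on all 4, and Otx2 differed by almost nothing. With limma 0 of 9 members passed at an adjusted p under 0.05, where 0.00662% of all probes did (2 of 30190). The brighter Dazl probe, lower on every knockdown array, did not pass either (-4.30, SE 0.29, limma adjusted p = 0.0547). Not passing thus does not show that a gene was unchanged. At an unadjusted p under 0.05 there were 5 of 9 members, Fgf15, Sfrp2, Foxd3, Fgf5 and Cldn6, beside 9.88% of all probes. Of the members 5 of 9 had knockdown and control arrays that did not overlap, beside 20.6% of all probes; 3 lay above the controls, where 8.65% of probes did, and 2 below, where 11.9% did. The median log2 difference was 0.01 over the members and -0.02 over all probes, and the median absolute difference was 0.52 and 0.18, respectively. The members were chosen with earlier results of these data known, so an excess over all probes may come from that choice.

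**Figure D1:**
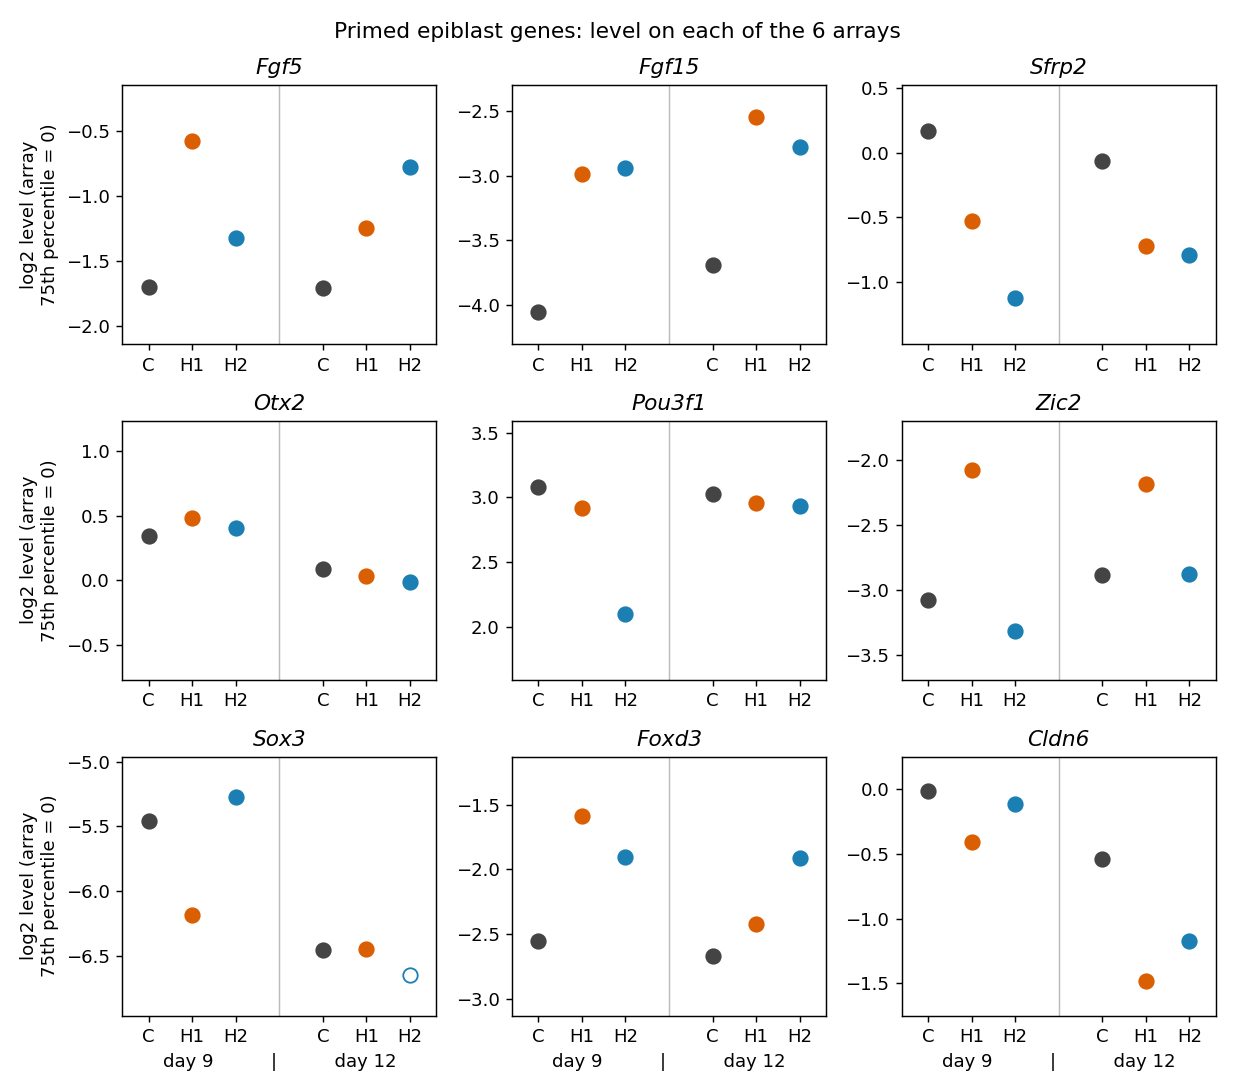
Log2 level of each of the 9 genes on each of the 6 arrays, with the array's 75th percentile at 0; every panel spans 2 log2 units, C is the control vector, H1 and H2 are hairpins 1 and 2, and the open circle (Sox3) is a spot not well above background. Fgf15, Fgf5 and Foxd3 sit above both controls on all 4 knockdown arrays, Sfrp2 sits below them, Zic2 is high on the hairpin 1 arrays and Otx2 is lower at day 12 than at day 9.

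Among the secreted ligands, Fgf15 had the largest difference of the group. It encodes an endocrine FGF of the midbrain, hindbrain and gut (NM_008003, chromosome 7, probe A_51_P440985). Its signal was 38 in the control, 82.7 with hairpin 1 and 97.3 with hairpin 2 at day 9, and 54.4, 117 and 92.5 at day 12. Every knockdown array thus had 187% to 220% of the signal of its control after scaling, and the groups did not overlap. Log2 levels were -3.87 ± 0.26 (SD, n = 2) in control and -2.81 ± 0.20 (SD, n = 4) in knockdown arrays. The difference of 1.05 (SE 0.15, 2.08-fold) had the 44th smallest p of 30190 probes (limma adjusted p = 0.232). Blocking on the vector, which leaves the spread between hairpins out of the error, gave a limma adjusted p = 0.126. The hairpins gave nearly the same differences at both days, 1.06 and 1.11 at day 9 and 1.14 and 0.90 at day 12. With the normexp background correction, which adds an offset of 50 to every signal, the difference was 0.56.

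Fgf5, the FGF ligand by which the primed epiblast is most often recognised, had signals of 193 in the control, 441 with hairpin 1 and 298 with hairpin 2 at day 9, and of 214, 289 and 372 at day 12 (NM_010203, chromosome 5, probe A_52_P569375). The 2 control arrays were nearly equal, with a log2 level of -1.71 ± 0.00 (SD, n = 2). The knockdown arrays were all higher but spread widely, at -0.98 ± 0.36 (SD, n = 4). The difference was 0.73 (SE 0.26, 1.66-fold, limma adjusted p = 0.466). Which hairpin was higher changed with the day, hairpin 1 at day 9 (1.13 against 0.38 over the control) and hairpin 2 at day 12 (0.94 against 0.47).

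Sfrp2 encodes a secreted Frizzled-related protein that binds WNT ligands. Its signal was 706 in the control, 454 with hairpin 1 and 343 with hairpin 2 at day 9, and 670, 415 and 368 at day 12 (NM_009144, chromosome 3, probe A_51_P520849). All 4 knockdown arrays were lower, with 41% to 63.3% of the control of the same day, and the groups did not overlap. Log2 levels were 0.05 ± 0.16 (SD, n = 2) in control and -0.79 ± 0.25 (SD, n = 4) in knockdown arrays. The difference of -0.84 (SE 0.21, 1.79-fold) had a limma adjusted p = 0.358, which was 0.209 after blocking on the vector.

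Of the transcription factors, Foxd3 was the one with higher levels on every knockdown array. It encodes a forkhead repressor needed in the epiblast and in neural crest (NM_010425, chromosome 4, probe A_51_P286423). Its signal was 107 in the control, 218 with hairpin 1 and 199 with hairpin 2 at day 9, and 110, 128 and 169 at day 12. The difference was 0.66 (SE 0.21, 1.58-fold, limma adjusted p = 0.431). At day 12 hairpin 1 exceeded its control by no more than 0.25, the smallest of the 4 differences.

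Pou3f1, also called Oct6, is a POU factor of the late epiblast and of Schwann cells (NM_011141, chromosome 4, probe A_51_P511270). It had signals of 5330 in the control, 4970 with hairpin 1 and 3200 with hairpin 2 at day 9, and of 5720, 5320 and 4870 at day 12. The hairpin 2 array of day 9 stood apart, with a difference of -0.98 from its control, while the other 3 lay at -0.16 to -0.07. The difference over all arrays was -0.33 (SE 0.26, limma adjusted p = 0.727). It was -0.57 without the day 12 control, -0.08 without the day 9 control and -0.12 without the hairpin 2 array of day 9. The groups did not overlap, but for 3 of the arrays the distance was small.

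Otx2, the homeodomain factor of anterior epiblast and head, was the most precisely measured member, with 10 spots per array whose signals had a coefficient of variation of 4.27% to 9.08% (NM_144841, chromosome 14, probe A_52_P49080). Its mean signal was 797.5 in the control, 914.9 with hairpin 1 and 985.8 with hairpin 2 at day 9, and 742.5, 700.4 and 630.5 at day 12. The knockdown difference was 0.01 (SE 0.14, limma adjusted p = 0.988). Both hairpins were slightly above the control at day 9 (0.14 and 0.06) and slightly below it at day 12 (-0.05 and -0.10), a pattern of direction shared by 6.35% of all probes.

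Zic2, a zinc finger factor of epiblast and dorsal neural tube, stood well above its controls with hairpin 1 and not with hairpin 2 (NM_009574, chromosome 14, probe A_51_P364592). The difference between hairpins did not pass (limma adjusted p = 0.219). Its signal was 74.5 in the control, 156 with hairpin 1 and 74.9 with hairpin 2 at day 9, and 95, 151 and 86.8 at day 12. Hairpin 1 arrays exceeded their controls by 1.01 and 0.70, and hairpin 2 arrays differed from theirs by -0.24 and 0.01. The knockdown difference was therefore uncertain, at 0.37 (SE 0.38, limma adjusted p = 0.796).

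Sox3, an X-linked SOXB1 factor of epiblast and neural progenitors, was near the lower limit of the arrays (NM_009237, probe A_51_P468544). Its signal was 14.3 in the control, 9.04 with hairpin 1 and 19.3 with hairpin 2 at day 9, and 7.98, 7.87 and 6.34 at day 12, where the last was not well above background. The knockdown difference was -0.18 (SE 0.27, limma adjusted p = 0.872), and it was 0.08 with the normexp correction.

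Cldn6, a tight junction claudin of epiblast and embryonic epithelia, had signals of 623 in the control, 495 with hairpin 1 and 690 with hairpin 2 at day 9, and of 482, 245 and 283 at day 12 (NM_018777, chromosome 17, probe A_51_P423743). Each knockdown array was below the control of its own day, though the day 9 knockdown arrays were above the day 12 control. The difference was -0.52 (SE 0.20, 1.43-fold, limma adjusted p = 0.490), and it was -0.25 without the day 12 control and -0.79 without the day 9 control. Over the members 3 were higher in all 4 pairs, where 14.9% of all probes were, 3 were lower in all 4 pairs, where 19.1% were, and 3 were mixed.

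**Figure D2:**
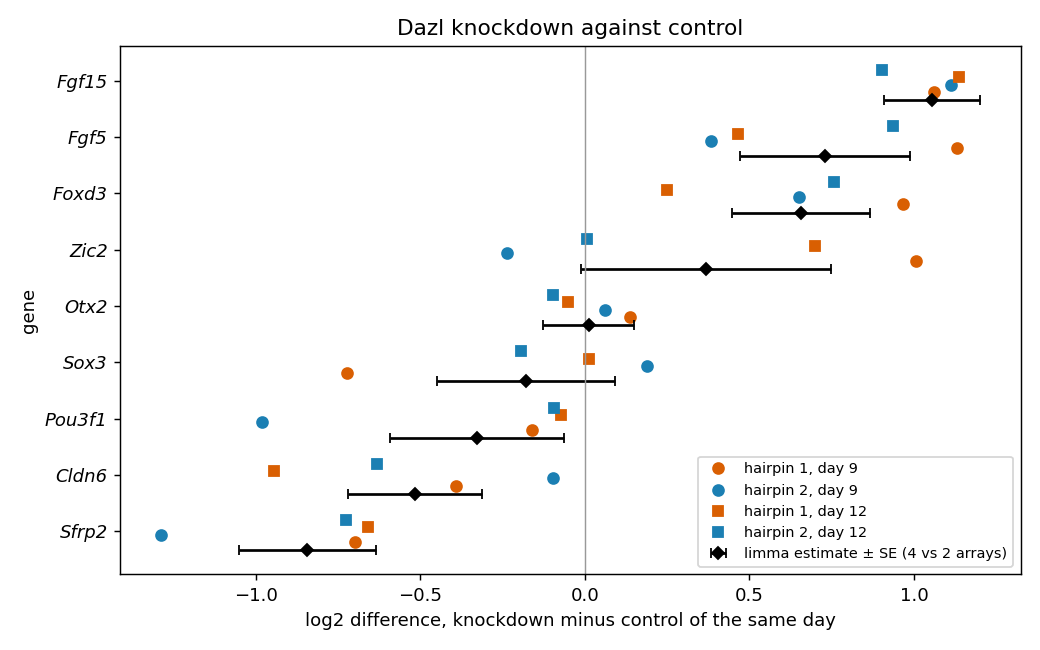
Log2 difference of each knockdown array from the control array of the same day (circles day 9, squares day 12) for the 9 genes, with the limma estimate and its SE (4 knockdown against 2 control arrays) as black diamonds. Fgf15 shows 4 close differences near 1, Fgf5, Foxd3 and Pou3f1 show spread between arrays, and the points of Zic2 separate by hairpin.

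Whether the knockdown difference was the same at both days was tested in a fit with 4 groups, in which the lone control of a day is assumed to vary like the knockdown pairs. At day 9 and at day 12 limma called 0 of 9 members, as it called 0% of all probes. At an unadjusted p under 0.05 there were 2 of 9 members at day 9 (Fgf15 and Sfrp2) beside 3.8% of all probes (1148), and 2 of 9 at day 12 (Fgf15 and Cldn6) beside 4.6% (1390). Fgf15 had 1.09 at day 9 and 1.02 at day 12 (SE 0.25 each), and Sfrp2 had -0.99 and -0.69 (SE 0.32 each). The difference between the days was -0.54 (SE 0.40) for Cldn6 and 0.49 (SE 0.55) for Pou3f1. For Pou3f1 it was 0.08 without hairpin 2 of day 9 and 0.90 without hairpin 1 of day 9. No difference between the days passed with limma for a member or for any other probe, with an adjusted p = 0.9999 for each member. At an unadjusted p under 0.05 there were 0 of 9 members beside 1.51% of all probes (456).

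The hairpins were compared directly, since each is the nearest thing to a repeat of the other. Zic2 was lower with hairpin 2 at both days, as 27.8% of all probes were, and its difference of -0.97 (SE 0.20, 1.96-fold) had a limma adjusted p = 0.219. It was the 1 member of 9 with an unadjusted p under 0.05, beside 10.7% of all probes, and 0 of 9 members passed, where 0.00331% of probes did. The other members differed by -0.42 (Pou3f1) to 0.35 (Sox3) between hairpins, and both of these moved when single arrays were left out. The Pou3f1 difference was 0.0007 without hairpin 2 of day 9 and -0.84 without hairpin 2 of day 12, and that of Sox3 was -0.11 without hairpin 1 of day 9 and 0.81 without hairpin 1 of day 12. Of the fibroblast and mesenchyme markers 8 of 9 were higher with hairpin 2 than with hairpin 1 (median 0.90, 0 passed with limma, 5 at an unadjusted p under 0.05), and their part in the differences between hairpins was not tested. For Fgf15 (-0.09, SE 0.17), Otx2 (-0.06, SE 0.17), Fgf5 (-0.14, SE 0.30) and Foxd3 (0.10, SE 0.25) the difference was smaller than its SE. In Fgf15, Fgf5 and Foxd3 the higher hairpin changed with the day.

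The arrays of day 12 were set against those of day 9 to see which members differed with longer differentiation. Cldn6, Sox3 and Otx2 were lower on all 3 arrays of day 12 than on any array of day 9, as were 7.58% of all probes, and no member was higher on all 3, as 8.68% of all probes were. With limma 0 of 9 members passed, where 0.0563% of all probes did (17 of 30190 probes, which became 245 after blocking on the vector). At an unadjusted p under 0.05 there were 3 of 9 members beside 10.7% of all probes. Cldn6 had -0.52 in the control and -1.08 and -1.06 with hairpins 1 and 2, and its difference of -0.89 (SE 0.19, 1.85-fold) had a limma adjusted p = 0.187. Sox3 had -0.88 (SE 0.25, limma adjusted p = 0.308), with log2 levels of -5.64 ± 0.48 (SD, n = 3) at day 9 and -6.52 ± 0.12 (SD, n = 3) at day 12. With the normexp correction the Sox3 difference was -0.23. Otx2 had -0.37 (SE 0.13, 1.30-fold, limma adjusted p = 0.394), with levels of 0.41 ± 0.07 (SD, n = 3) and 0.03 ± 0.05 (SD, n = 3). The levels within a day were close for Otx2, and the step between days was larger than that spread. Fgf5 (-0.04, SE 0.24), Sfrp2 (-0.03, SE 0.20), Zic2 (0.18, SE 0.36), Pou3f1 (0.27, SE 0.25), Fgf15 (0.32, SE 0.14) and Foxd3 (-0.32, SE 0.20) differed less between days, and the Pou3f1 value was -0.01 without hairpin 2 of day 9. For Fgf5 the vectors went opposite ways, -0.67 with hairpin 1 and 0.55 with hairpin 2.

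**Figure D3:**
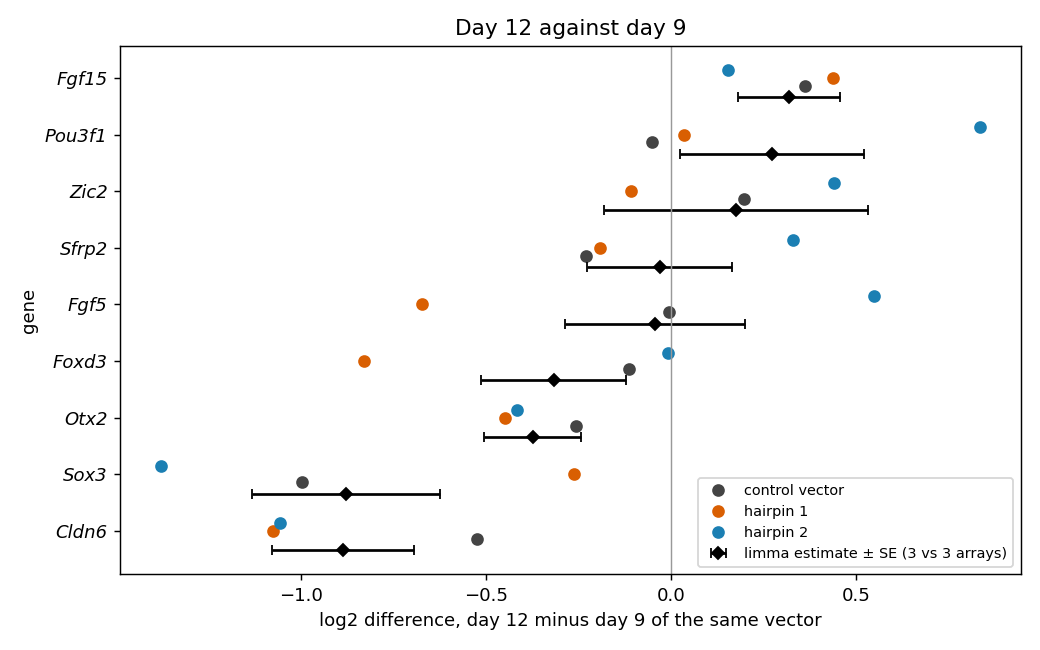
Log2 difference of day 12 from day 9 for each vector (control, hairpin 1, hairpin 2) and the limma estimate with its SE (3 against 3 arrays, black diamonds). Cldn6, Otx2 and Sox3 are lower at day 12 with every vector, and Fgf5 lies on both sides of 0.

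Across the 6 arrays the members did not share a single pattern. Of 36 pairs of members 3 had Pearson's r above 0.8 and 19 had r below 0, with a median of -0.015; these values rest on 6 arrays that share days and vectors and are a description. The closest pair was Fgf5 and Foxd3 (r = 0.888), followed by Otx2 with Cldn6 and Sox3 with Cldn6 (r = 0.808 each), and the most opposed was Fgf15 and Sfrp2 (r = -0.875). Among 5272 probes with a gene symbol and a range of at least 1, the genes most like each member over the 6 arrays were Cd207 and Frat1 for Fgf15 (r = 0.998 and 0.992), Cd44 and Gfod1 for Fgf5 (0.935 and 0.922), and Cpne5 and Rb1cc1 for Sfrp2 (0.994 and 0.993). For the others they were Hist1h1d and Mmp23 for Otx2, Dars and Lypla1 for Pou3f1, Elf1 and Rbm26 for Zic2, 2600005C20Rik and Cenpf for Sox3, Tfrc and Prdx6 for Cldn6, and BC015286 and LOC630882 for Foxd3, with r of 0.946 to 0.9999. Pou3f1 had a log2 level of 2.10 on the hairpin 2 array of day 9 and 2.92 to 3.08 elsewhere, so its r rests largely on 1 array. All these genes were picked as the highest of 5272 candidates over 6 arrays, so a high r does not show a relation.

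The FGF pathway around Fgf5 and Fgf15 was read from 16 ligands, receptors, feedback inhibitors and target genes, of which 14 were tested. With limma 0 of 14 passed in the knockdown contrast; 10 were higher and 4 lower, with a median of 0.23 against -0.02 over all probes. The ETS factors Etv4 and Etv5, transcriptional targets of FGF and ERK, were higher in all 4 pairs, Etv4 by 0.81 to 1.21 (estimate 1.05, SE 0.15, adjusted p = 0.232) and Etv5 by 0.39 to 1.28 (0.68, SE 0.24, adjusted p = 0.470). Other genes induced by FGF and ERK had smaller differences. Dusp6 had 0.44 (SE 0.34) and Spry2 had 0.43 (SE 0.58), each higher in 3 of 4 pairs, and Spry1 and Spred1 had -0.03 each (SE 0.15 and 0.22). These 4 were added after their knockdown values were seen. Of the receptors, Fgfr1 had 0.55 (SE 0.25) and Fgfr2 had -0.67 (SE 0.32), each in 1 direction in all 4 pairs. By day, 5 of 14 were higher and 9 lower, with a median of -0.16; Klb, the co-receptor for endocrine FGFs, had 0.59 (SE 0.19) and the feedback inhibitors Spry1 and Spred1 had -0.51 (SE 0.14) and -0.37 (SE 0.21), none of which passed. Spry4 was not well above background on any array.

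The other Frizzled-related proteins differed in the direction opposite to Sfrp2. Sfrp1 (1.15, SE 0.17, limma adjusted p = 0.232), Frzb (1.64, SE 0.51), Sfrp5 (0.62, SE 0.24) and Sfrp4 (0.56, SE 0.21) were higher in all 4 pairs, and none passed with limma. Frzb was near the lower limit of the arrays, with log2 levels of -6.22 and -6.60 in the controls, and its differences ran from 0.41 to 2.34. Of the 10 WNT antagonists and targets tested, 7 were higher and 3 lower in knockdown arrays (median 0.26, 0 passed). With hairpin 2 against hairpin 1, 7 were higher and 3 lower, with a larger median (0.48, 0 passed). The WNT targets Axin2 (0.01, SE 0.30), Lef1 (0.06, SE 0.27), Sp5 (-0.27, SE 0.30) and Nkd1 (-0.55, SE 0.17) were not raised by knockdown. These targets were picked after their values were seen. By day 4 of the list were higher and 6 lower (median -0.22, 0 passed). The WNT target Sp5 had -0.94 (SE 0.28) and the antagonist Dkk1 had -0.62 (SE 0.25) at day 12 against day 9, and Frzb had -0.73 (SE 0.49). The antagonist Wif1, well above background on 3 arrays, had 0.90 (SE 0.49).

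**Figure D4:**
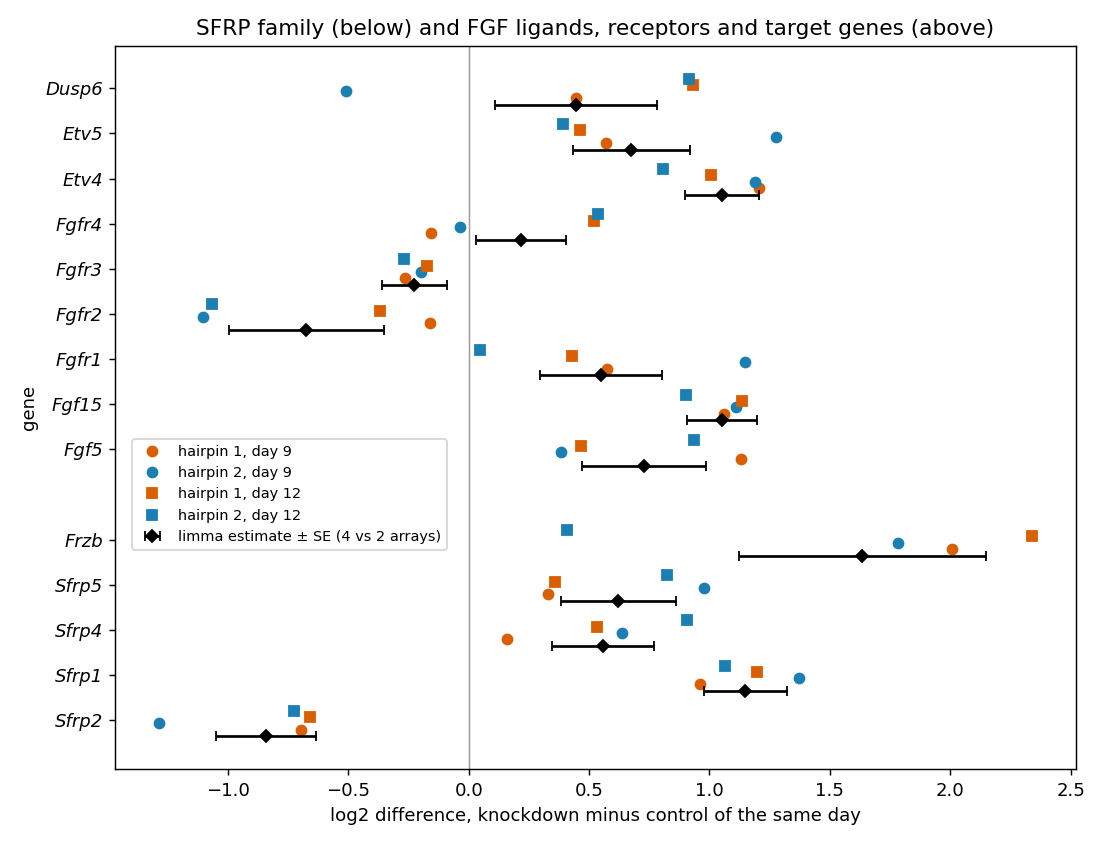
Log2 difference of each knockdown array from the control array of the same day, with the limma estimate and its SE (4 against 2 arrays, black diamonds), for Sfrp2 with its family and for Fgf5 and Fgf15 with FGF receptors and target genes. Sfrp2 lies below 0 while Sfrp1, Sfrp4, Sfrp5 and Frzb lie above it on all 4 arrays, and Fgf5, Fgf15, Etv4 and Etv5 lie above 0 on all 4.

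Other genes of the primed or formative epiblast were read from a list of 20, of which 19 were tested. In the knockdown contrast 14 were higher and 5 lower, with a median of 0.14, and 0 passed with limma. Beside Etv4 and Etv5 the largest differences were those of Tdgf1, the NODAL co-receptor (1.03, SE 0.19), and Tcf15, a basic helix-loop-helix factor of the formative state (0.77, SE 0.42). The de novo DNA methyltransferases Dnmt3a (-0.55, SE 0.21) and Dnmt3b (-0.57, SE 0.19) were lower in all 4 pairs and were picked after their values were seen. By day 5 were higher and 14 lower (median -0.10, 0 passed), with Sall2 at -0.56 (SE 0.27) and Wnt3, a ligand of the posterior epiblast, at -0.44 (SE 0.15).

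Relatives of the transcription factor members gave 4 higher and 5 lower of 9 tested in knockdown arrays (median -0.04, 0 passed). The largest were Pou5f1 (0.70, SE 0.16, adjusted p = 0.326), whose reporter was used in the sort, Sox1 (0.53, SE 0.31) and Zic5 (0.46, SE 0.28). Pou3f2 was not well above background on any array. The epithelial claudins Cldn3, Cldn4, Cldn7 and Cldn9, tested beside Cldn6, had knockdown differences of -0.31 to 0.10, and all 4 were lower at day 12, led by Cldn7 (-0.55, SE 0.14, adjusted p = 0.258). The list of naive pluripotency genes gave 10 higher and 2 lower of 12 tested (median 0.32, 0 passed), with Tcl1 (0.97, SE 0.31) and Nr0b1 (0.92, SE 0.22) as the largest. It shares Pou5f1 and Sox2 with the list of relatives, and Pou5f1 is not particular to naive cells.

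Markers of other cell types were measured beside the members, since several members are used there too. Of the endoderm markers 8 of 8 tested were higher (median 0.96, 0 passed with limma). Their summed level, relative to the 75th percentile, was 1.05 and 0.984 in the controls and 1.81 to 2.63 in knockdown arrays. Cer1 was well above background on 2 knockdown arrays and 0 controls, so the filter itself favoured a higher value. Gata6 with hairpin 2 at day 9 (-0.21) and Apob with hairpin 1 at day 12 (-0.33) were below the control. Ttr was not well above background on any array. Of the fibroblast and mesenchyme markers 9 of 9 were higher (median 0.98, 0 passed). Their summed levels were 5.47 and 2.15 in the controls and 3.52 to 8.06 in knockdown arrays, which overlap. Lox was well above background on 3 knockdown arrays and 0 controls, so for it too the filter favoured a higher value. With hairpin 1 at day 9, Col1a2, Thy1 and Dcn were below the control, and Pdgfra was below it with hairpin 2 at day 9 (-0.52) and day 12 (-0.34). Neural markers gave 8 higher and 3 lower of 11 tested (median 0.06, 0 passed), with sums of 3.66 and 3.90 against 4.84 to 6.05. Stmn2, a gene of growing neurites, had the largest difference of this list (1.60, SE 0.15, adjusted p = 0.104), and without it the sums were 3.03 and 3.35 against 3.22 to 3.98, which overlap; it and the other genes left out of sums were chosen after their values were seen. Pax3 and En1 were not well above background on any array. Neural crest markers gave 3 higher and 2 lower of 5 (median 0.16, 0 passed), with sums of 3.50 and 2.79 against 4.85 to 7.60. Ngfr (1.15, SE 0.24) made up this gap, and without it the sums were 0.948 and 0.795 against 0.820 to 1.06, which overlap. Germ cell markers gave 1 higher and 8 lower of 9 (median -0.25, 0 passed), with sums of 48.8 and 46.7 against 35.2 to 37.1. Without Dazl, the target itself, the sums were 46.3 at day 9 and 40.7 at day 12 in the controls against 35.0 to 36.8. These sums still held Dppa3, a bright marker, with log2 levels of 3.94 and 3.79 in the controls against 2.60 to 3.61. Sums without Dppa3 were not taken, so the gap is not shown to be shared by the markers. Tfap2c, about as bright, had log2 levels of 4.03 and 3.66 in the controls against 3.64 to 3.83 in knockdown arrays, which overlap. Beside Dazl the knockdown differences ran from -0.62 (Dppa3) to 0.17 (Nanos3). The part of any of these lists in the differences of Fgf15, Fgf5, Foxd3, Sfrp2 and Cldn6 was not tested.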

How the data were processed

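Each of the 6 samples was hybridised to 1 Agilent 1-colour array. The deposited scanner files hold spot intensity values from Agilent Feature Extraction 9.1.3.1 with spatial and multiplicative detrending and surrogate values for dim spots, per the file headers, and arrays were not yet scaled to each other. The authors' deposited table holds a ratio to the array's median, made in GeneSifter from background-subtracted signals, per the file headers. Both carry a deposited quality score whose making is not given in the sources used here; it served to match all 41529 entries of the table to spots within 1e-06.

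Spots of a probe were averaged as log2 values, without outlier flags (0 to 18 spots per array), after which the 75th percentile over an array's probes was taken as 0. Tests covered the probes that at least 2 arrays measured well above background (30190 with values on all arrays) with limma 3.58.1 in R 4.3.3, two-sided, with Benjamini-Hochberg adjustment over all of them; the threshold was an adjusted p under 0.05. Knockdown was fitted with day as a term; a fit with 4 groups gave the days apart, and a fit with vector and day gave the hairpins. The fit was tested on simulated data. The number of arrays limits the precision. Deviations of arrays with the same vector from their day's mean correlated across days (r = 0.407, 0.554 and 0.235; different vectors -0.338 to -0.054), so the vector was also fitted as a replicate block. Hairpins are numbered as in the sample titles; the deposited files number the same hairpins 2 and 3.

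All members were named; from each list up to 4 genes by size were named per contrast (some list genes are not reported here), and for likeness the 2 genes of highest r, as stated. List genes were matched by array name or accession, with the probe of highest mean standing for a gene. Members and lists were chosen with earlier results of these data known. The comparisons share their control arrays.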

Additional observations from a re-analysis of the deposited data

Results flagged for a closer look

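For Otx2 both hairpins were above the control at day 9 and both were below it at day 12, so that the knockdown difference had opposite signs at the 2 days. The knockdown effect at day 12 minus that at day 9 was -0.17 on the log2 scale (SE 0.33, limma adjusted p = 0.9999), which did not pass. The same reversal of direction, either way round, was seen in 13.7% of all probes.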

How the results depend on the processing

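No member passed in any alternative, in any contrast; the lowest adjusted p over the alternatives was 0.126 (Fgf15) for knockdown, 0.102 (Cldn6) for day and 0.0507 (Zic2, without hairpin 2 of day 12) for the hairpins. Of 125 values of members under alternatives, 4 changed direction for knockdown and 8 for day; of 116 for the hairpins, 8 did. Fgf15, Fgf5, Foxd3, Zic2, Sfrp2, Pou3f1 and Cldn6 kept the sign of the knockdown difference in all 14 alternatives. Without 1 array in turn the differences were 1.01 to 1.11 for Fgf15, 0.56 to 0.89 for Fgf5, 0.50 to 0.81 for Foxd3 and -0.99 to -0.69 for Sfrp2. Over all probes, the count for knockdown (2) was 4 with normexp, 1 with probes of a gene averaged, 1 on the authors' table, 4 under a replicate block by vector and 0 to 1 without 1 array; within day 9 and within day 12 (0) it was 2 each with normexp. The count for day (17) was 10 with quantile normalization, 0 with no filter, 30 with probes of a gene averaged, 6 on the authors' table, 4 with a trend and robust prior, 245 with the replicate block and 0 to 3 without 1 array. For the hairpins (1) it was 0 with normexp, 0 with no filter, 3 with the strict filter, 2 with averaged probes, 2 on the authors' table, 30 with a trend and robust prior and 0 to 1554 without 1 array. The cause of these changes was not tested. The hairpin contrast already holds vector and day as terms, so no separate block was fitted, and the block was not fitted for the fit with 4 groups. Sox3, near background, was not tested under the strict filter.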
